A study of Mus musculus with 64 samples.

Results

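The genes of transforming growth factor beta (TGF-beta) signaling examined here were 9 of the 39017 genes counted by RNA sequencing in mouse pancreatic tumor cells. They were taken by symbol from a list, and the rule that finds them uses no measured value. The list itself was chosen with earlier results of these data known, which limits comparisons with the shares over all genes. It held the ligands Tgfb1, Tgfb2, Tgfb3 and Inhba, the receptors Tgfbr1 and Tgfbr2, the inhibitors Smad7 and Skil, and the target Tgfbi. All 9 passed the filter on low counts in each comparison. The tumor lines were 8: clones E, H and V, which the study places in metabolic group 1, clones K, M, N and T, which it places in group 2, and KPC1, which it places in neither. The 7 clones were subcloned from a tumor of a KPC mouse, in which Pdx1-Cre acts in the pancreas and a mutant Trp53 allele is carried. Each of these 7 lines is thus 1 clone, and they share this genotype and a mixed C57BL/6 background. The origin of KPC1 is not described in the study's paper. Of each line, 4 libraries came from cells grown alone (mono-culture) and 4 from cells recovered by their green fluorescence after 48 h together with fibroblasts, 64 libraries in all. Whether mono-cultures were passed through the same sorter is not given in the sources used here. No label says that the 4 libraries of a line came from separate cultures, so p-values within a line cover only the spread between these libraries, which may be technical.

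TGF-beta ligands are secreted in a latent form, are released in the matrix and bind a type II receptor, which recruits and activates a type I receptor. The activated pair phosphorylates Smad2 and Smad3, which enter the nucleus with Smad4 and switch target genes, among them genes for inhibitors that close the loop. Activins, built from inhibin beta subunits, use related receptors and the same Smads. In the pancreas the pathway is known for restraining the growth of epithelium and for driving fibroblasts to lay down matrix.

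Libraries held between 11178721 and 21333683 counts, with a median of 15648009, and each of the 64 libraries correlated best with another library of its own line and culture. Counts scaled to library size (CPM, scaled with TMM factors) compare 1 gene between libraries. Values scaled by gene length as well (RPKM), as the authors computed them, are used wherever different genes are compared. The keratins Krt8 and Krt18 were at 554.7 CPM or more and 861 CPM or more without fibroblasts, and at no less than 256 and 836 CPM after coculture, respectively. By contrast, Epcam, a defining epithelial surface marker, was absent or nearly so, at 0.742 CPM or less in every library and at 0 in 14 of 32 mono-culture libraries. The summed level of 16 fibroblast markers ranged from 174.6 to 541.6 CPM without fibroblasts and from 389.7 to 2295 CPM after coculture. Of these, Thy1 and Lum were at 0 in every mono-culture library, Postn had counts in 3 of the 32, and Thy1 was between 1.11 and 24.9 CPM in coculture. Lum stayed low in coculture, at 0.242 CPM or less as a line mean. With the line as the replicate, 12 of 15 markers tested rose in coculture and 0 fell, at an adjusted p under 0.1. Col5a1 (log2 change 0.0016), Fbln1 (-0.37) and Twist1 (0.23) did not pass. In single lines, 2 markers fell in clone H and 3 in clone V. Most fibroblast markers thus rose with the culture in each of the 8 lines, and their part in the results on coculture was not tested. In bulk samples, fewer cells of a type and less RNA per cell cannot be told apart.

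The 250 bases before the transcription start are shown for the genes on which the results turn: Tgfb1, which fell in coculture, Inhba, which rose, Tgfb2, whose direction split the lines, and the 2 receptors, whose changes ran together. Sequences are from RefSeq on GRCm38.p6, 6 of the 9 genes were matched, and each run ends at the base before the start, 5′ to 3′ on the strand of the gene. Capitals mark CAGAC or GTCTG, a letter pattern that Smad proteins are known to bind, and TATAAA, the core of a TATA box, and distances count bases before the start.
Tgfb1, chr7:25686752-25687001, plus strand: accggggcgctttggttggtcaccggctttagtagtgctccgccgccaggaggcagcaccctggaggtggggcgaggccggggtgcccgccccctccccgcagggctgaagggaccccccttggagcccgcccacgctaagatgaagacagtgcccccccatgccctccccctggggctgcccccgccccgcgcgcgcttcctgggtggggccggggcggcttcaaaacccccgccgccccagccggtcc
Inhba, chr13:16011601-16011850, plus strand: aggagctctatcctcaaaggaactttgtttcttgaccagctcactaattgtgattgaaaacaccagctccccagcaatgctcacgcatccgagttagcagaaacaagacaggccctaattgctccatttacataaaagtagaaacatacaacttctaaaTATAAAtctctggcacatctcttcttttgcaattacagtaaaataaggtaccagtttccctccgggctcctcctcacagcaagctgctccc
Tgfb2, chr1:186705990-186706239, minus strand: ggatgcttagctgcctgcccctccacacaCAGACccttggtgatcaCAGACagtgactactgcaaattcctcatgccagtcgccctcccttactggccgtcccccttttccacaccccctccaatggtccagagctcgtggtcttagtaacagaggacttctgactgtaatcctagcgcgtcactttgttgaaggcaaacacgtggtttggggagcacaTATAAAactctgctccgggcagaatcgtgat
Tgfbr1, chr4:47352972-47353221, plus strand: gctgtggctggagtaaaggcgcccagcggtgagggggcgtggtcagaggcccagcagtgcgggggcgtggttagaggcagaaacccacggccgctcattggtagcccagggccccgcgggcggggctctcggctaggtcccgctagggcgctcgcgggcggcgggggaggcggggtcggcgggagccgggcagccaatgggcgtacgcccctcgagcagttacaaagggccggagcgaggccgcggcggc
Tgfbr2, chr9:116175364-116175613, minus strand: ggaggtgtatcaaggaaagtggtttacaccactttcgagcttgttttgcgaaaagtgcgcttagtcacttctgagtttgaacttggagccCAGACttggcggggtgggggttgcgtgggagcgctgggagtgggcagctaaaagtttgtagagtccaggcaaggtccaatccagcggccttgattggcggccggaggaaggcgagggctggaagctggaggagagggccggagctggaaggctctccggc
Tgfb1 held none of these letters in 250 bases with a GC content of 75.2%, against a median of 52.4% over 32851 promoters. Tgfb2 held the Smad pattern 221 and 204 bases before its start and TATAAA 31 bases before it. Inhba held TATAAA 91 bases before its start and no Smad pattern, at 43.2% GC, and Tgfbr2 held the Smad pattern once, 160 bases before its start. Tgfbr1 held neither at this start, and its other listed start, on the same chromosome, held the Smad pattern 203 bases before it. Tgfbi held it 239 and 85 bases before the RefSeq start used here. That window, chr13:56609336-56609585, runs past the GENCODE start of the gene at 56609523, so the distances hold for the RefSeq start alone. The Smad pattern on either strand was in 42.2% of all promoters of this length and TATAAA on either strand in 12.4%, while TGANTCA, an AP-1 pattern, was in 6.75% of all promoters and in none of these. The 2 Smad patterns and TATAAA do not overlap in any of the sequences printed.

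Per length, Tgfb1 was the ligand with the highest mean in all 8 lines and both cultures. Its mean RPKM in mono-culture was between 30.9 in KPC1 and 47.9 in clone T. Tgfb3 came next in most lines, with a median over lines of 13.9 RPKM, but reached 35.9 in clone V, close to the 36.5 of Tgfb1 there. Tgfb2 had a median over lines of 3.92 RPKM and was at 24.02 in clone K. Inhba, which encodes the subunit of activin A, had a median of 3.45 RPKM and ran from 0.470 in clone E to 16.03 in KPC1. In coculture Inhba came within the spread of Tgfb1 in KPC1, at 20.2 ± 8.20 against 23.8 ± 3.25 RPKM (SD, n = 4), and Tgfb3 did so in clone V, at 22.2 ± 5.42 against 22.9 ± 3.17 RPKM (SD, n = 4).

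**Figure D1:**
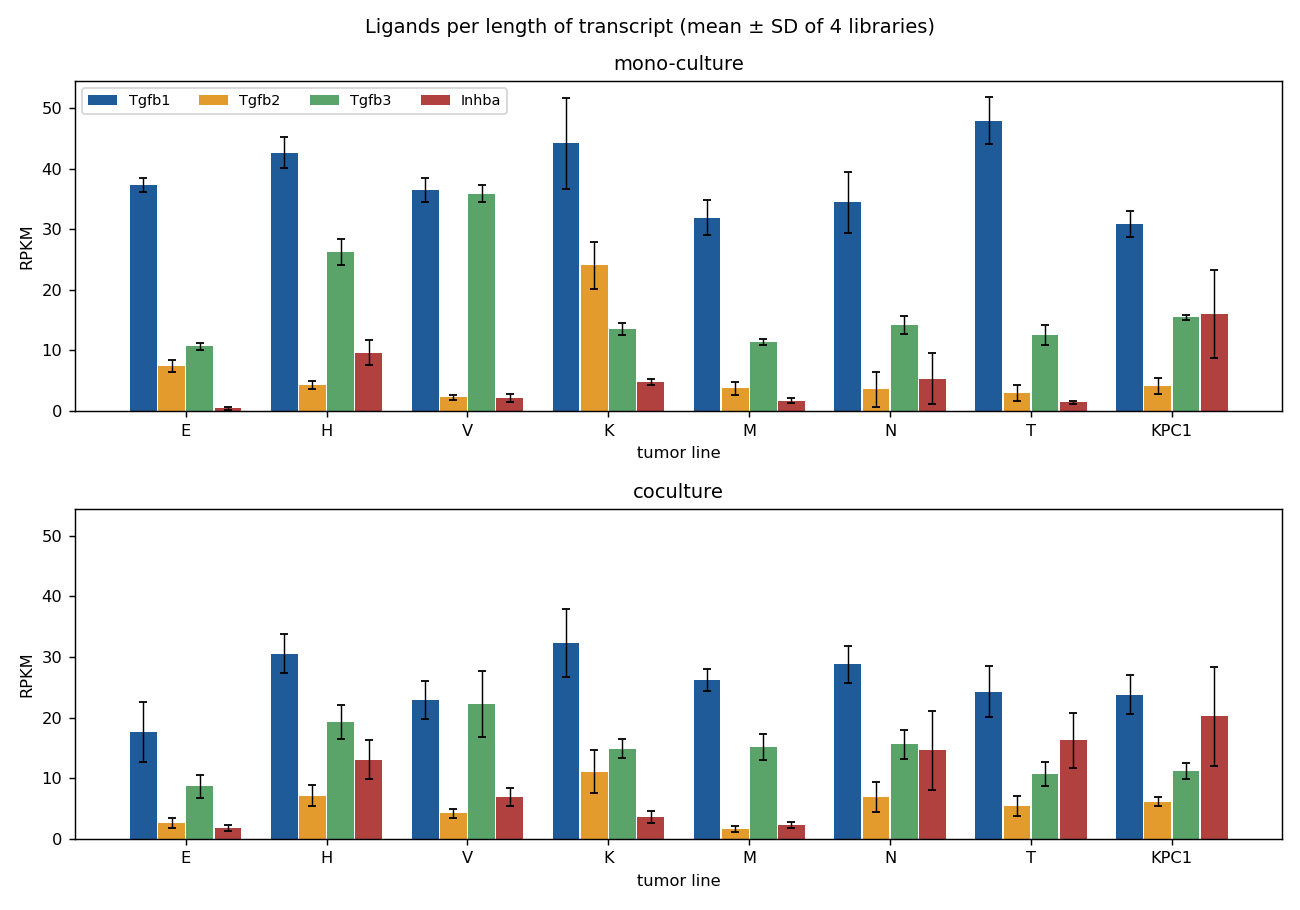
Mean RPKM of the 4 ligands in the 8 lines (bars, ± SD of 4 libraries), in mono-culture above and coculture below. Tgfb1 is the tallest bar in each line, Tgfb2 is high in clone K, Tgfb3 in clones H and V, and Inhba in KPC1 and, in coculture, in clone T.

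The first comparison asked whether the genes differed between the lines in mono-culture. All 9 did in an F test over the 8 lines, against a background of 96.8% of the 13624 genes tested, so that a difference between lines was the rule for any gene. The size of the difference varied among the 9. Inhba differed most, from 0.963 ± 0.444 CPM in clone E to 33.4 ± 16.3 in KPC1 (SD, n = 4), a ratio of 34.7. Tgfbi, an extracellular matrix protein named for its induction by TGF-beta, ran from 0.408 CPM in clone E to 13.6 in clone T, a ratio of 33.3. Tgfb1 differed least, from 163 CPM in KPC1 to 259 in clone T, a ratio of 1.59. The ratio was 11.4 for Tgfb2, and for the other 5 genes it lay between 2.40 for Smad7 and 3.47 for Skil.

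Individual lines stood apart for single genes. Tgfb2, in clone K, was at 153.7, 178.3, 123.8 and 152.2 CPM in mono-culture, and no library of any other line passed 52.2 CPM. Clone K also had the highest Smad7, at 104.2, 107.8, 119.3 and 104.2 CPM, with no overlap with clone H, the next line at 66.99 to 83.84 CPM. Skil, which encodes the Smad corepressor SnoN, was highest in clone K by its mean of 217 CPM, but those libraries overlapped those of clone V, and it was lowest in clone M, at 55.75 to 70.13 CPM, below every library of the next line. Tgfb3 was highest in clone V, at 120.7, 117.5, 126.7 and 128.2 CPM, then in clone H, at 89.66 to 104.9 CPM, and below 56 CPM in each library of the remaining 6 lines. Of group 1, clones H and V thus shared a high Tgfb3 that clone E, at 34.37 to 38.84 CPM and the lowest line of all, did not have.

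The receptors were ordered differently. Tgfbr1, the type I receptor kinase, was highest in clone N at 194 ± 8.00 CPM (SD, n = 4) and lowest in clone M at 70.4 CPM. Tgfbr2, the type II receptor that binds ligand first, was highest in clone V at 337 ± 51.9 CPM (SD, n = 4) and lowest in clone N at 104 CPM. Per length, Tgfbr2 exceeded Tgfbr1 by 2.77 times in clone V and 2.24 times in clone M, and was at 0.424 of it in clone N. Neighbors in these orders mostly overlapped: of the 7 steps down the order of lines in mono-culture, 2 were without overlap for Tgfbr1 and 1 for Tgfbr2.

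**Figure D2:**
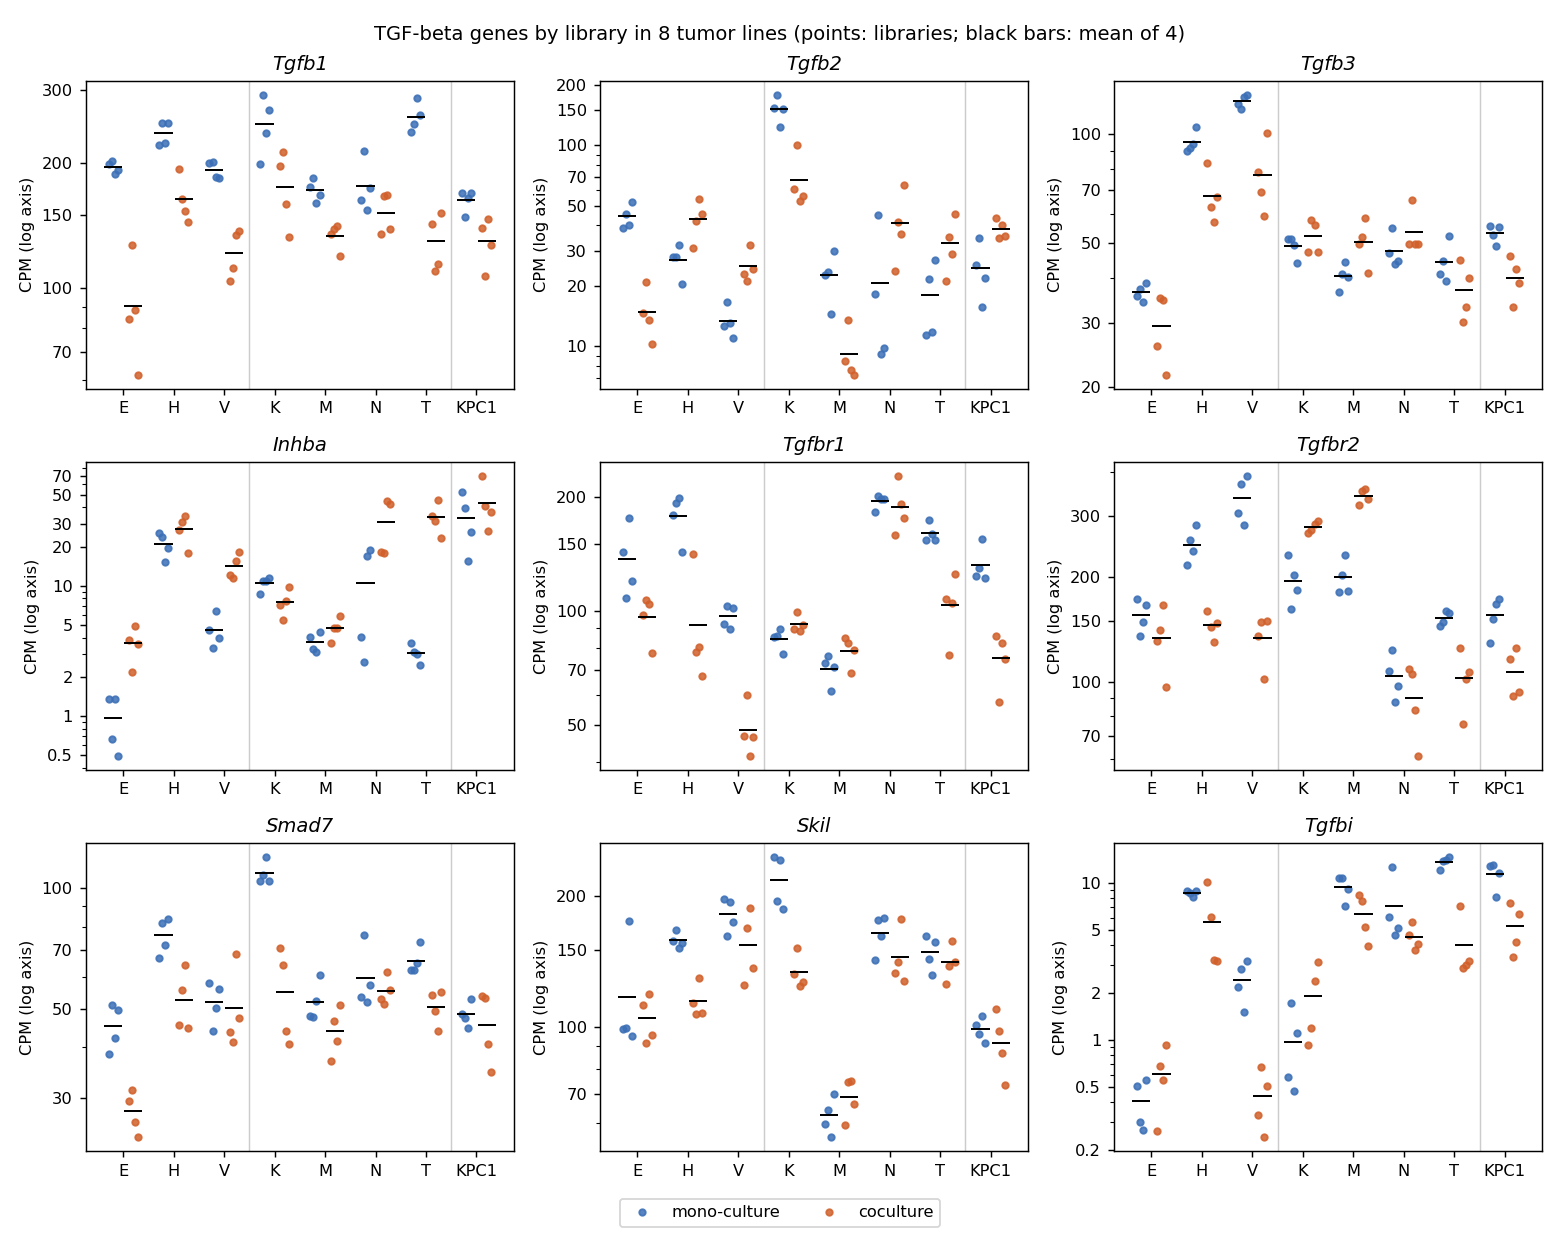
CPM (log axis) of the 9 genes in each library of the 8 lines, mono-culture in blue and coculture in orange, with black bars at the mean of 4 libraries. Gray lines part group 1 (E, H, V), group 2 (K, M, N, T) and KPC1. Tgfb1 has a lower mean in coculture in each line, whereas Tgfb2 and Tgfbr2 move up in some lines and down in others.

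The next comparison asked how the genes changed when a line was cultured with fibroblasts. With the line as the replicate, on counts summed over libraries, 5 of the 9 genes passed an adjusted p of 0.1, the threshold of the study: Tgfb1, Tgfbr1, Smad7 and Skil fell and Inhba rose. Of the 14478 genes tested, 54.5% passed, 27.1% of them upward and 27.4% downward as shares of all genes, so 5 of 9 is near the background. The median log2 change over all genes was -0.000892. The changes below are log2 fold changes of coculture over mono-culture.

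Tgfb1 fell in the shared comparison by 0.59 (SE 0.106, adjusted p = 0.00295), a 1.502-fold decrease, with a lower mean in 8 of 8 lines. Leaving out any line or replicate number kept it between -0.64 and -0.51, and it passed in libraries numbered 1 to 43 alone (-0.62, adjusted p = 0.00632, over 7 lines) as well as in those numbered 44 to 64 (-0.49, adjusted p = 0.0337, over 5 lines). In clone E the libraries went from 199.4, 202.3, 188.8 and 192.8 CPM in mono-culture to 84.34, 126.7, 88.7 and 61.84 CPM in coculture. That is a log2 change of -1.11 (SE 0.138, adjusted p = 2.31e-09), and no coculture library reached the lowest mono-culture one. Clone T went from 238.4, 249.3, 287.1 and 261.2 CPM to 142.7, 109.7, 114.4 and 151.3 CPM, a change of -0.9998 (SE 0.137, adjusted p = 2.03e-08), again without overlap. The fall also passed in clone V (-0.66), H (-0.53), K (-0.51), M (-0.36) and KPC1 (-0.32). Clone N, at -0.22 (adjusted p = 0.236), did not pass, and its libraries overlapped, from 154.3 to 214.4 CPM against 134.8 to 168.1 CPM.

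The smaller of these calls depended on single libraries or on the model. Without replicate 4, Tgfb1 in clone K was at -0.36 (adjusted p = 0.130) and in clone M at -0.33 (adjusted p = 0.122). Clone M also did not pass with limma on log2(RPKM + 1) (-0.27, adjusted p = 0.102) or log2(RPKM + 0.1) (-0.28, adjusted p = 0.104). In KPC1 it did not pass without replicate 1 (-0.34, adjusted p = 0.119), replicate 2 (-0.28, adjusted p = 0.129) or replicate 4 (-0.29, adjusted p = 0.146), nor with the library series as a covariate (-0.29, adjusted p = 0.116).

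Inhba rose in the shared comparison by 1.11 (SE 0.386, adjusted p = 0.0392), 2.16-fold, and it was the only ligand of the 4 to rise. The mean was higher in 7 of 8 lines, and 4 lines passed on their own. Clone T went from 3.623, 3.116, 2.973 and 2.46 CPM to 34.61, 31.71, 45.8 and 23.18 CPM, a log2 change of 3.47 (SE 0.404, adjusted p = 5.88e-10) or 11.1-fold. This was the largest change among the 72 values of the 9 genes in 8 lines, and no library of clone T in coculture came near those in mono-culture. Clone E rose by 1.85 (SE 0.497, adjusted p = 0.00147) but from a low level, 1.341, 0.6706, 1.343 and 0.4956 CPM to 3.818, 2.193, 4.889 and 3.583 CPM. Clone V rose by 1.65 (SE 0.386, adjusted p = 0.000306), from 3.332 to 6.425 CPM up to 11.55 to 18.07 CPM, without overlap. Clone N rose by 1.54 (SE 0.365, adjusted p = 0.0011), although its mono-culture libraries were split, 4.049 and 2.595 CPM against 17.04 and 18.68 CPM, and the highest of them lay above the lowest in coculture, 17.78 CPM. In a fit of clone N alone the call was lost (1.51, adjusted p = 0.105). Clones H (0.40), M (0.35) and K (-0.47) and KPC1 (0.38) did not pass.

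In libraries numbered 44 to 64 alone, an alternative chosen after the data were seen, the shared change of Inhba was 0.58 (adjusted p = 0.499, over 5 lines), and in libraries numbered 1 to 43 alone it was 1.57 (adjusted p = 0.00931, over 7 lines). The 5 lines do not include clones E, V and N, and the 7 lines do not include clone K. For each gene split in this way, the series and the lines thus cannot be told apart. Without clone T, the line with the largest rise, it was 0.81 (adjusted p = 0.0518). The sum of 5 fibroblast markers (Thy1, Postn, Fap, Dcn and Pdgfra) had a higher median in coculture in each line as well, from 8.53 to 106.3 CPM in clone T and from 0.476 to 73.5 CPM in clone E. Over the 32 coculture libraries, taken as deviations from the mean of each line, Inhba had r = 0.313 and Tgfbi r = 0.317 with that sum, the other 7 genes lying between -0.271 and 0.137. These libraries share their depth and their cultures. Between the 8 lines, the r of the response with the coculture level of that sum ran from -0.0644 for Tgfbi to 0.544 for Tgfb2, with 0.284 for Inhba. Pdgfra, part of the sum, also had counts without fibroblasts, at up to 52.3 CPM. All these r values are a description.

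Tgfb2 did not pass in the shared comparison (0.02, SE 0.354, adjusted p = 0.969), while it passed in 7 of 8 lines, in opposite directions. It fell in clone E by 1.57 (SE 0.325, adjusted p = 5.78e-05), from 38.95, 45.83, 40.38 and 52.22 CPM to 14.62, 20.97, 13.62 and 10.25 CPM. Clone M fell by 1.30 (SE 0.338, adjusted p = 0.00244), from 22.66, 23.52, 14.51 and 29.96 CPM to 8.484, 13.47, 7.634 and 7.241 CPM. Clone K fell by 1.17 (SE 0.309, adjusted p = 0.00521), to 60.71, 100.5, 53.12 and 56.15 CPM, and stayed the line with the highest mean. The libraries of the 2 cultures did not overlap in any of these 3 lines.

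Tgfb2 rose in the other direction in clones N, V, T and H. Clone V went from 12.7, 16.71, 13.1 and 10.98 CPM to 23.07, 21.28, 31.82 and 24.25 CPM, a change of 0.91 (SE 0.325, adjusted p = 0.0159) without overlap. Clone T rose by 0.86 (adjusted p = 0.0196) and clone H by 0.67 (adjusted p = 0.0865), both with overlapping libraries. In clone N the change was 0.99 (adjusted p = 0.0155), with mono-culture libraries at 18.3, 45.16, 9.211 and 9.841 CPM against 23.67, 41.43, 36.4 and 63.35 CPM. Clone N depended on single libraries: the value was 1.73 without replicate 2, 0.80 (adjusted p = 0.119) without replicate 3 and 0.48 (adjusted p = 0.343) without replicate 4. It also did not pass in a fit of clone N alone (0.98, adjusted p = 0.19). Clone H did not pass without replicate 1 (0.83, adjusted p = 0.102), replicate 3 (0.65, adjusted p = 0.196) or replicate 4 (0.53, adjusted p = 0.269), nor with no filter on low counts (0.70, adjusted p = 0.146). KPC1, at 0.66 (adjusted p = 0.106), did not pass, although its libraries did not overlap, 15.78 to 34.49 CPM against 34.52 to 43.52 CPM, and it passed without replicate 2 (0.92, adjusted p = 0.0336), in a fit of KPC1 alone (0.66, adjusted p = 0.0338) and with DESeq2 (0.66, adjusted p = 0.0887).

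Tgfb3, the third TGF-beta isoform, did not pass in the shared comparison (-0.20, SE 0.110, adjusted p = 0.168), and passed without clone M (-0.27, adjusted p = 0.0568). It fell in clone V by 0.68 (SE 0.132, adjusted p = 1.98e-05), to 78.72, 69.11, 59.24 and 100.7 CPM, every value below the mono-culture libraries. Clone H fell by 0.49 (adjusted p = 0.00266) and KPC1 by 0.40 (adjusted p = 0.0179), both without overlap. The changes in clone E (-0.31), clone M (0.31) and clone T (-0.26) were small, passed with adjusted p values of 0.0458, 0.0662 and 0.0974, and their libraries overlapped. Each of these depended on single libraries: clone E did not pass without replicate 1 (-0.29, adjusted p = 0.140) or 4 (-0.16, adjusted p = 0.370), and clone T did not pass without replicate 2 (-0.16, adjusted p = 0.4003), 3 (-0.27, adjusted p = 0.150) or 4 (-0.21, adjusted p = 0.232) and was at -0.41 without replicate 1. The clone T call was lost in 9 of 13 alternatives. Clone M did not pass without replicate 1 (0.28, adjusted p = 0.206), 2 (0.30, adjusted p = 0.16) or 3 (0.28, adjusted p = 0.202), nor with no filter on low counts (0.31, adjusted p = 0.110), and KPC1 did not pass without replicate 2 (-0.33, adjusted p = 0.122).

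The receptor Tgfbr1 fell in the shared comparison by 0.47 (SE 0.147, adjusted p = 0.0271), 1.38-fold, and passed in 5 lines. Clone V went from 92.69, 103.1, 89.52 and 101.6 CPM to 46.95, 59.92, 41.58 and 46.51 CPM, a change of -0.99 (SE 0.152, adjusted p = 2.79e-07). Clone H changed by -0.96 (SE 0.150, adjusted p = 2.06e-06), from 179.1, 192.9, 198.1 and 143.1 CPM to 141.1, 78.21, 80.41 and 67.27 CPM. KPC1 (-0.82), clone T (-0.63) and clone E (-0.50) also fell, and in all 5 lines the libraries of the 2 cultures did not overlap. Clones K (0.12), M (0.16) and N (-0.05) did not pass, and their libraries overlapped. In libraries numbered 44 to 64 alone the shared change was -0.34 (adjusted p = 0.192) and in those numbered 1 to 43 it was -0.61 (adjusted p = 0.0156). These sets differ in their lines, as given for Inhba.

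Tgfbr2 did not pass in the shared comparison (-0.30, SE 0.209, adjusted p = 0.262), and passed in 6 lines in opposite directions. It fell in clone V by 1.33 (SE 0.148, adjusted p = 1.56e-10), from 305.2, 371.5, 281.8 and 390.2 CPM to 135.7, 148.4, 102.4 and 150 CPM. Clone H (-0.77), clone T (-0.58) and KPC1 (-0.54) fell too. It rose in clone M by 0.78 (SE 0.146, adjusted p = 4.95e-05), from 181.1, 203.4, 232.4 and 183.0 CPM to 323.0, 352.6, 358.6 and 335.2 CPM, and in clone K by 0.52 (SE 0.146, adjusted p = 0.00912), from 162.6 to 231.4 CPM up to 268.1 to 290.8 CPM. None of these 6 lines had overlapping libraries. Clone V, the line with the most Tgfbr2 in mono-culture, thus had 134 CPM in coculture against 342 CPM in clone M. Clone E (-0.22) and clone N (-0.21) did not pass, and clone E passed without replicate 2 (-0.33, adjusted p = 0.0982) or replicate 3 (-0.39, adjusted p = 0.0527). The shared value passed without clone M (-0.45, adjusted p = 0.0706) and in libraries numbered 1 to 43 alone (-0.50, adjusted p = 0.0869), and was -0.06 (adjusted p = 0.889) in those numbered 44 to 64. Clone K, where Tgfbr2 rose, was not among the lines of the former set. Clone V, where it fell most, was not among those of the latter, so series and lines cannot be told apart.

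Across the 8 lines the responses of Tgfbr1, Tgfbr2 and Tgfb3 followed a similar order. The correlation of the responses was r = 0.917 for Tgfbr1 and Tgfbr2, 0.958 for Tgfb3 and Tgfbr1, and 0.896 for Tgfb3 and Tgfbr2, the 3 pairs above 0.8 among 36, whose median was 0.0538. Levels in mono-culture did not run together in this way for the receptors, with r = -0.485, or for Tgfb3 and Tgfbr1, with r = 0.0486. For Tgfb3 and Tgfbr2 the levels in mono-culture had r = 0.765. The responses of a line come from the same 8 libraries, so these r values over 8 lines are a description. Clones V and H had the 2 lowest values for all 3 genes. Clone M had the highest for all 3, with clone K next for both receptors and clone N next for Tgfb3.

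**Figure D3:**
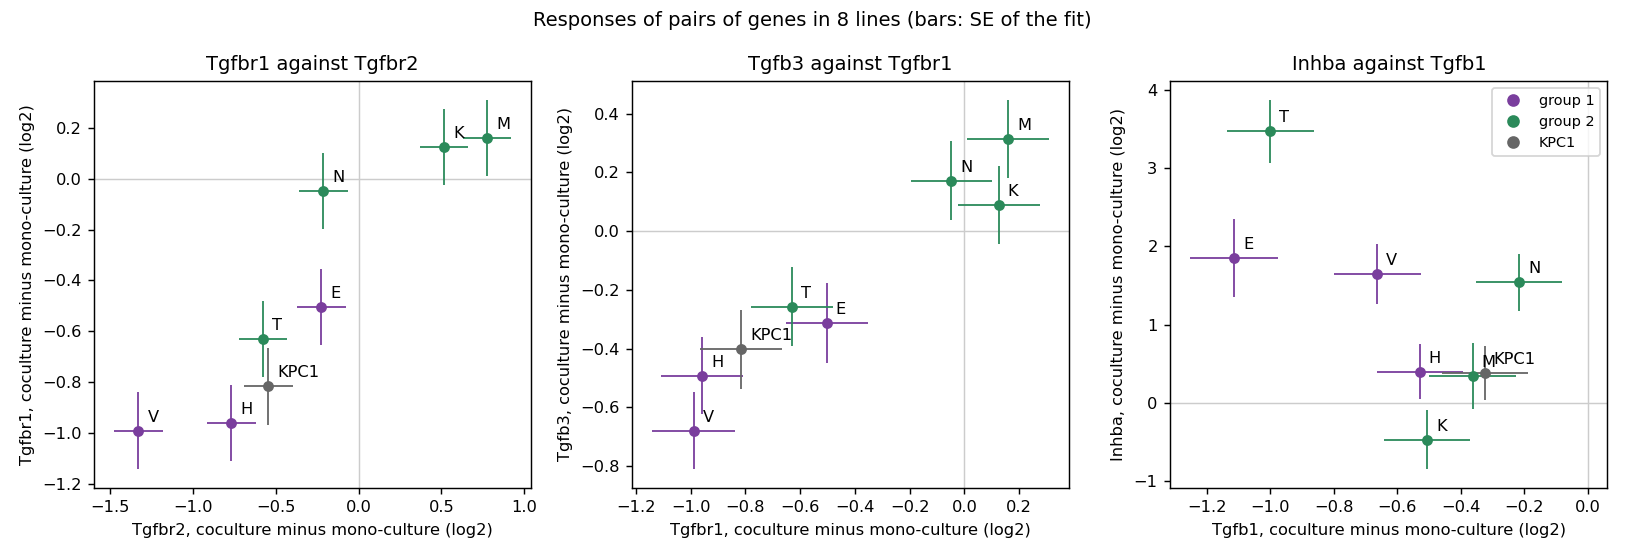
Log2 change in coculture of Tgfbr1 against Tgfbr2, Tgfb3 against Tgfbr1, and Inhba against Tgfb1 in the 8 lines, with bars for the SE of the fit and colors for group 1, group 2 and KPC1. The points of the left and middle panels run along a diagonal from clones V and H up to clone M, while on the right Tgfb1 is below 0 in each line and Inhba is highest in clone T.

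Smad7, the inhibitory Smad that blocks the type I receptor and is itself induced by TGF-beta, fell in the shared comparison by 0.39 (SE 0.110, adjusted p = 0.0180). Its log2 change was below 0 in 8 of 8 lines, as for Tgfb1. Of all 14134 genes tested in single lines, 27.2% had 1 sign in all 8, against 2 of these 9. Clone K fell by 0.99 (SE 0.148, adjusted p = 1.53e-06), from the 104.2 to 119.3 CPM given above to 70.91, 64.4, 43.89 and 40.86 CPM. Clone E fell by 0.71 (SE 0.151, adjusted p = 8.55e-05), from 38.44, 50.97, 42.26 and 49.74 CPM to 29.49, 31.31, 26.05 and 23.93 CPM. Clone H (-0.54) and clone T (-0.38) also passed, and these 4 lines had no overlap. In clones M (-0.24), N (-0.11) and V (-0.05) and in KPC1 (-0.09) it did not pass. In clones V and N and in KPC1 the sign itself changed on leaving out some of the replicates.

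Skil fell in the shared comparison by 0.23 (SE 0.0856, adjusted p = 0.0541), a 1.17-fold decrease. That call was lost without clone H (-0.18, adjusted p = 0.144), without replicate 4 (-0.20, adjusted p = 0.116), and in libraries numbered 1 to 43 (-0.12, adjusted p = 0.197) or 44 to 64 (-0.27, adjusted p = 0.237) alone. In single lines it fell in clone K by 0.70 (SE 0.136, adjusted p = 0.000113), from 245.1, 194.4, 241.6 and 186.6 CPM to 132.3, 151.6, 123.9 and 126.3 CPM. Clone H fell by 0.47 (SE 0.135, adjusted p = 0.00542), from 157.3, 166.9, 151.2 and 155.6 CPM to 113.3, 106.9, 129.1 and 107.5 CPM. Both were without overlap. The other 6 lines lay between -0.23 and 0.14, and of these clone V (-0.31, adjusted p = 0.0369) and clone N (-0.31, adjusted p = 0.0681) passed without replicate 3.

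Tgfbi was at -0.73 in the shared comparison (SE 0.338, adjusted p = 0.104) and did not pass. It fell in clone V by 2.44 (SE 0.461, adjusted p = 1.29e-05), from 2.173, 2.819, 1.497 and 3.163 CPM to 0.3344, 0.6755, 0.241 and 0.5098 CPM, which were 4 to 10 counts a library. Clone T fell by 1.75 (SE 0.327, adjusted p = 1.02e-05), from 12.04, 13.7, 14.09 and 14.58 CPM to 7.104, 2.871, 3.016 and 3.197 CPM. KPC1 fell by 1.08 (SE 0.321, adjusted p = 0.00856), and none of these 3 lines had overlap. Clones H (-0.62), M (-0.57), N (-0.65), E (0.54) and K (0.99) did not pass, and clones E and K were low, with 4 to 13 and 7 to 51 counts a library. Clone H passed without replicate 1 (-1.03, adjusted p = 0.0153) and clone K without replicate 2 (1.57, adjusted p = 0.0261), as did clone K with DESeq2 (0.99, adjusted p = 0.0709) and clone H with limma on log2(RPKM + 1) (-0.51, adjusted p = 0.0394). The shared value passed without clone K (-0.96, adjusted p = 0.026), clone E (-0.87, adjusted p = 0.075), or replicate 1, 3 or 4, the values of which were between -0.85 and -0.74. It also passed in libraries numbered 1 to 43 alone (-0.92, adjusted p = 0.0441), with DESeq2 (-0.71, adjusted p = 0.0544) and with limma on log2(RPKM + 1) (-0.46, adjusted p = 0.0397).

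**Figure D4:**
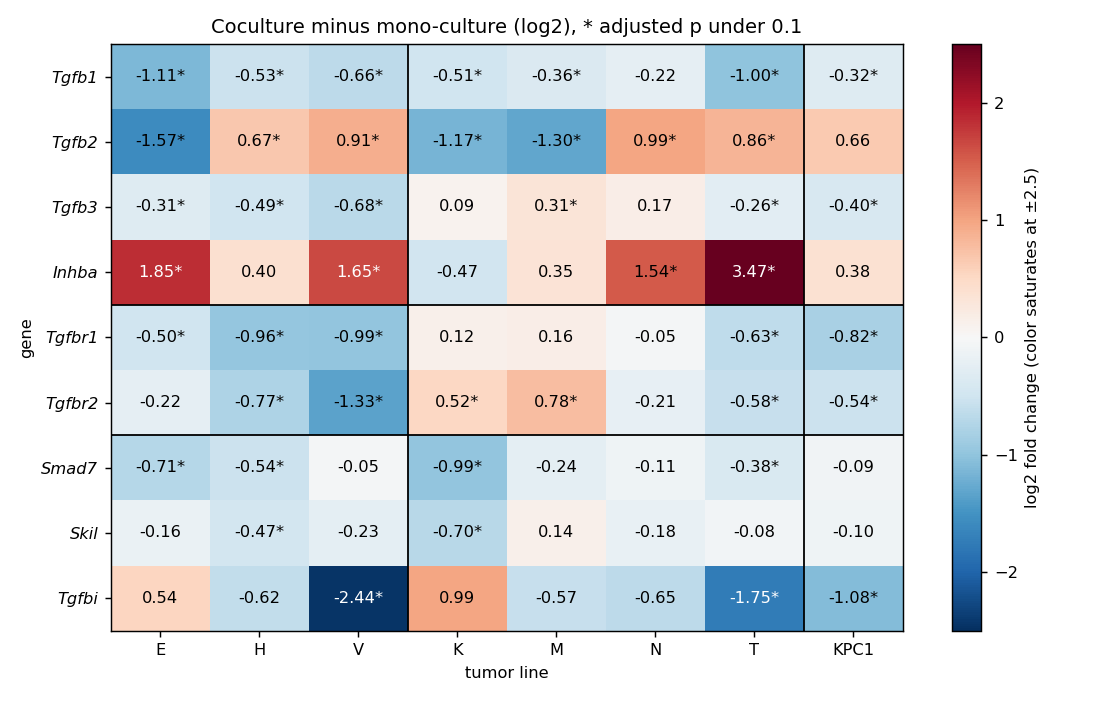
Log2 change in coculture of the 9 genes (rows) in the 8 lines (columns), red for higher and blue for lower in coculture, with an asterisk where the adjusted p was under 0.1. Tgfb1 and Smad7 are blue across the row, Inhba is deepest red in clone T, Tgfb2 and Tgfbr2 change color between lines, and Tgfbi is deepest blue in clones V and T.

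Counted by line, 6 of the 9 genes passed in clone E (background 61.3% of 14134 genes), 7 in clone H (43.9%), 7 in clone V (61.4%) and 5 in clone K (20.4%). The count was 4 in clone M (38.8%), 2 in clone N (37.3%), 8 in clone T (62.1%) and 5 in KPC1 (39.1%). Downward calls outnumbered upward ones, 33 to 11 over the 72 values, in 6 of the 8 lines. In clone H, 6 of 9 genes fell, against 22.5% of all genes, and 1 rose, against 21.4%. In clone T 6 of 9 against 30.6%. In clone K 4 of 9 genes fell, against 7.96%, in clone E 5 against 29.2%, in clone V 5 against 31.4% (with 2 upward against 30%) and in KPC1 5 against 19%, where 20.1% of all genes rose and none of the 9 did. Clone N had none that fell and 2 that rose, Tgfb2 and Inhba, against 20% of all genes upward. Clone M had 2 in each direction, against 21.5% upward and 17.2% downward.

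The libraries of the 2 cultures did not overlap for 7 of 9 genes in clone V (48.6% of all genes), 6 in clone H (36.3%), 6 in clone T (48.0%), 6 in KPC1 (23.6%) and 5 in clone E (45.5%). The number was 4 in clone K (19.3%), 3 in clone M (38.4%) and 0 in clone N (22.4%).

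All 9 genes also passed the F test of whether the response differed between the 8 lines, against a background of 71.3% of genes. The smallest adjusted p was that of Tgfbr2, 2e-11, followed by Tgfb2 at 8.92e-08, and the largest was that of Skil, 0.00704. The share of variance of log2 CPM over the 64 libraries told the same genes apart. Line by culture took 28.3% for Tgfb2 and 26.5% for Tgfbr2, against a median of 8.84% over all genes. Culture alone took 47.7% for Tgfb1, 20.2% for Smad7 and 16.1% for Tgfbr1, against a median of 8.38%, and 0.0305% for Tgfb2. Line alone took 78.2% for Skil, 77.9% for Tgfbi and 77.7% for Tgfb3, against a median of 55.7%, and 23.9% for Tgfb1.

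**Figure D5:**
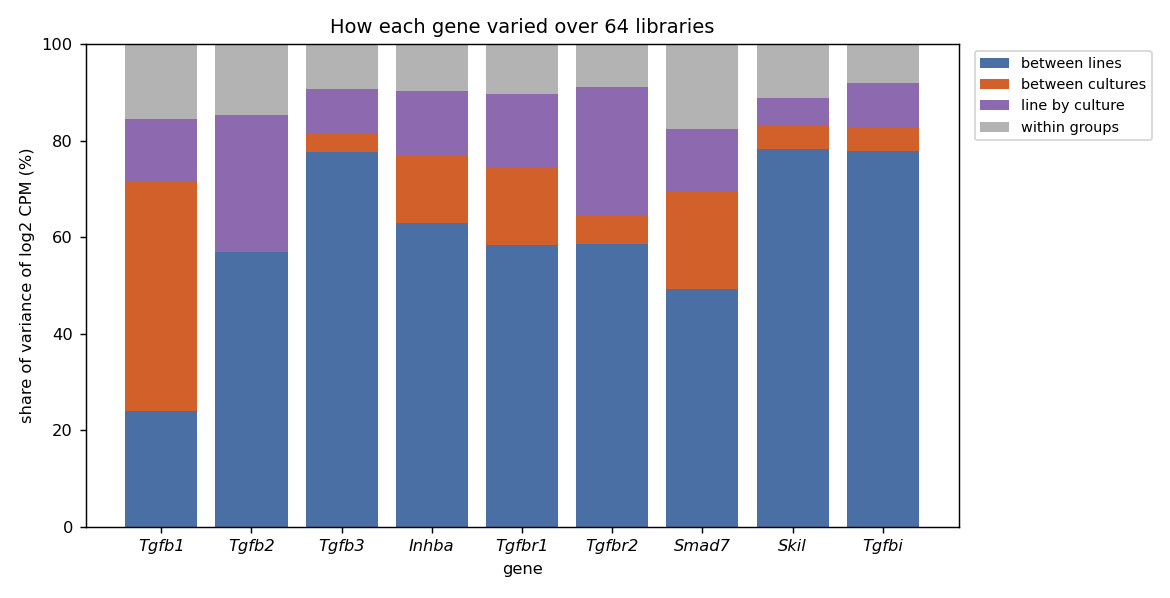
Share of the variance of log2 CPM over 64 libraries (%) that lay between lines, between cultures, in line by culture and within groups, as stacked bars for the 9 genes. Tgfb1 has the largest share between cultures, Tgfb2 and Tgfbr2 the largest in line by culture, and Skil, Tgfbi and Tgfb3 vary mostly between lines.

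The metabolic groups of the study were compared over clones, 3 of group 1 against 4 of group 2. In mono-culture 0 of the 9 genes passed edgeR's test, and 0% of 14829 genes did, with 744 at an unadjusted p under 0.05. DESeq2 called 0 of the 9 as well, a count without a share over all genes from DESeq2 beside it, since the 0% is edgeR's. Tgfb3 had the smallest unadjusted p of the 9, with a log2 difference of 0.91 (SE 0.37, adjusted p = 0.900), and its clones H and V were above all of group 2 while clone E was below all of it. Leaving out clone E raised the value to 1.27 (adjusted p = 0.0609), the only alternative in which a gene of the 9 passed. Tgfb2 of clone K, at 152 CPM, lay far from the other group 2 clones at 17.97 to 22.66 CPM.

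The difference in response between the groups also passed edgeR's test for 0 of the 9 genes, against 0.00637% of 15700 genes, with 1178 of those genes at an unadjusted p under 0.05. DESeq2 again called 0 of the 9, likewise without its share over all genes. The values with the smallest unadjusted p were those of Tgfb3 (-0.56, SE 0.167, adjusted p = 0.633), Tgfbr1 (-0.73, SE 0.219, adjusted p = 0.645) and Tgfbr2 (-0.91, SE 0.371, adjusted p = 0.661), all lower in group 1. Within group 2, clone T had values below 0 for these 3 genes (-0.26, -0.63 and -0.58).

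Other genes of the pathway were read from lists by role, whose counts stand against 27.1% of all genes that rose and 27.4% that fell in the shared comparison. Several lists were near those shares. Among 12 genes for latency and activation of the ligands, 11 were tested in the shared comparison, of which 4 rose and 4 fell, with a median of -0.17. Ltbp3, a latent TGF-beta binding protein, fell by 0.91 (adjusted p = 0.00168) with a lower mean in 8 of 8 lines, and Furin, a protease that cuts the ligand precursors, fell by 0.41 (adjusted p = 0.023). Lrrc32, which holds latent TGF-beta on the cell surface, rose by 5.26 (adjusted p = 0.000899) but from a median over lines of 0.0153 CPM to 1.49 CPM. Emilin1 rose by 2.35 (adjusted p = 0.00168), also from under 2 CPM.

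Among 11 other receptors of the family, 9 were tested, 6 fell and none rose, with a median of -0.25 against -0.000892 over all genes. The coreceptor Tgfbr3, betaglycan, fell by 0.87 (SE 0.187, adjusted p = 0.00566) and the BMP type II receptor Bmpr2 fell by 0.32 (adjusted p = 0.00574). Among 8 other ligands 4 were tested, and the one that passed was Bmp2, which fell by 0.67 (adjusted p = 0.0357). Of 8 Smads and cofactors tested, Smad3, which carries the TGF-beta signal, fell by 0.59 (SE 0.129, adjusted p = 0.00629), while Smad1, which carries the BMP signal, rose by 0.33 (adjusted p = 0.0116) and Smad9 by 2.75 (adjusted p = 0.0329) from a median of 0 CPM in mono-culture.

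Of 10 intracellular inhibitors, 5 rose and 2 fell, with a median of 0.0934. Smad6, the other inhibitory Smad, fell by 1.12 (SE 0.135, adjusted p = 0.00077) and passed downward in 8 of 8 lines, and Ski, the relative of Skil, fell by 0.57 (adjusted p = 0.0044) and passed in 7. Smurf1, a ubiquitin ligase for Smads and receptors, rose by 0.48 (adjusted p = 0.00799), and Bambi, a decoy receptor, rose by 2.76 (adjusted p = 0.00965) from a median of 0.0287 CPM. Among 8 extracellular inhibitors 6 were tested, 2 rose and 2 fell. Those that rose were Fstl3, an activin antagonist, by 1.06 (adjusted p = 0.0277) and Dcn, which is on the fibroblast list too, and those that fell were Chrd (-1.41, adjusted p = 0.0149) and Lefty1 (-0.31, adjusted p = 0.0761).

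Of 20 other TGF-beta targets, 19 were tested, 13 rose and 1 fell, against 27.1% and 27.4% of all genes, with a median of 0.516. Col1a1 and Acta2, the 2 with the smallest p, are on the fibroblast list as well. Without these 2 genes, the only ones on both lists, 11 of 17 rose, with a median of 0.427. Junb fell by 0.50 (adjusted p = 0.0455). In single lines the number of targets that rose ran from 2 of 19 in clone K (12.4% of all genes) to 14 of 19 in clone T (31.5%). The BMP list held 5 genes, and the 3 tested in the shared comparison fell, among them Id2 (-2.05, SE 0.186, adjusted p = 1.60e-04) and Id3 (-1.62, SE 0.240, adjusted p = 0.00161). Msx1, a BMP target named after its values were seen, was tested in single lines alone and rose in 7 of 8, from at most 0.0341 CPM as a line mean in mono-culture to between 0.140 and 0.748 CPM in coculture. The summed fibroblast markers moved with the culture as given above, and their part in these lists was not tested.

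The genes whose mean log2 CPM over the 16 groups of line and culture was most like that of each of the 9 were Klf13 (r = 0.948) and Ap1g1 (0.902) for Tgfb1, Pim1 (0.860) and Dnajb2 (0.859) for Tgfb2, and Wdr33 (0.915) and Dcaf5 (0.914) for Tgfb3. For Inhba they were St6galnac4 (0.913) and Layn (0.907), for Tgfbr1 Gm10093 (0.896) and Ace (0.891), and for Tgfbr2 Praf2 (0.941) and Hnrnpa0 (0.923). Bmpr2 (0.865) and Amotl1 (0.846) were nearest to Smad7, Fbxw7 (0.894) and 5730559C18Rik (0.862) to Skil, and 2310009B15Rik (0.924) and Neurl3 (0.918) to Tgfbi. These are the highest of many r values over 16 points that share lines and cultures, and they are a description.

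On GRCm38, with GENCODE M21, Tgfb1 (ENSMUSG00000002603) lies at chr7:25687002-25705077 on the plus strand, Tgfb2 (ENSMUSG00000039239) at chr1:186622792-186705989 on the minus strand and Tgfb3 (ENSMUSG00000021253) at chr12:86056745-86079041 on the minus strand. Inhba (ENSMUSG00000041324) lies at chr13:16011851-16031621 on the plus strand and Tgfbi (ENSMUSG00000035493) at chr13:56609523-56639562 on the plus strand. The receptors are at chr4:47353222-47414931 on the plus strand for Tgfbr1 (ENSMUSG00000007613) and chr9:116084293-116175360 on the minus strand for Tgfbr2 (ENSMUSG00000032440). Skil (ENSMUSG00000027660) is at chr3:31095058-31122577 on the plus strand. Counts were taken over whole genes, so no value belongs to a single exon or isoform.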

How the data were processed

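Poly(A) RNA from 64 tumor cell samples was sequenced as strand-specific paired-end libraries. The authors deposited read counts per gene, made with featureCounts on mm10 per the labels, whose versions and strand setting are not given in the sources used here, and RPKM values per gene, which the authors computed with edgeR per the labels. Without the strand setting, reads of a gene and of an overlapping antisense gene cannot be told apart.

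Counts were tested with edgeR 4.0.16 (R 4.3.3), with TMM scaling, its filter on low counts, the quasi-likelihood test and Benjamini-Hochberg adjustment over all genes tested, at the study's threshold of 0.1. Single lines were tested in a fit of 64 libraries (14134 genes), the shared response on counts summed by line and culture with line as covariate (14478 genes), and the groups on sums per clone. Alternatives used DESeq2 1.42.0 and limma 3.58.1 on log2(RPKM + 1) or log2(RPKM + 0.1), with a minimum of 0.5 RPKM in 4 libraries. Others were other scaling, no filter, a replicate block, the library series, and left-out replicates and lines. The series (library numbers 1 to 43 or 44 to 64) was inferred from separate S numbers of the samples, which start again at 1 among library numbers 44 to 64. The labels name no series. In simulated data, changes of 1 on the log2 scale were recovered for 77.0% of 200 genes in clone E and 83.5% in the shared response, and changes of 0.5 for 39.0% and 38.5%. Of the genes called there, 8.33% and 7.74% were false at a change of 1, and 6.02% and 11.5% at 0.5. Only these 200 genes changed, in the shared response by the same size in each line. In the data 61.3% of genes passed in clone E and 54.5% in the shared response, so the simulated rates need not hold for either.

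The 9 genes and all lists were chosen with earlier results of these data known. Genes named from the other lists were up to 2 that rose and 2 that fell with the smallest p in the shared response, and for each of the 9 the 2 genes with the highest r over the 16 groups. Promoters of Tgfb3, Smad7 and Skil were not used here. Marker lists for leukocytes and endothelium had 1 and 2 genes tested in the shared response (Cd68 rose, Kdr rose and Pecam1 fell), and of 7 epithelial markers tested, Krt19 and Krt8 fell. Precision is limited by 4 libraries a group and 8 lines. Some items are not reported here.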

Additional observations from a re-analysis of the deposited data

Results flagged for a closer look

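The response to coculture differed between the 8 lines for each of the 9 genes in an F test of edgeR's quasi-likelihood fit. The adjusted p was 0.000273 for Tgfb1, 8.92e-08 for Tgfb2, 3.82e-05 for Tgfb3 and 9.26e-07 for Inhba. For the receptors it was 7.43e-07 for Tgfbr1 and 2e-11 for Tgfbr2, and for the remaining genes 0.000556 for Smad7, 0.00704 for Skil and 6.19e-05 for Tgfbi. Of all genes, 71.3% passed this test.

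Single samples stood apart in 5 of 162 groups of samples checked, where chance gives about 8.1, by the gap to the nearest sample as a share of the whole range. Tgfb2 in clone K coculture was 100.5 CPM in replicate 2 against 53.12 to 60.71 in the others (share 0.84). Mean Tgfb2 in mono-culture was 152 CPM in clone K against 17.97 to 22.66 in the other group 2 clones (share 0.965). Tgfb3 in clone N coculture was 65.57 CPM in replicate 2 against 49.56 to 49.78 (share 0.986). Skil in clone E mono-culture was 175.1 CPM in replicate 3 against 95.21 to 99.26 (share 0.949). Tgfbi in clone T coculture was 7.104 CPM in replicate 1 against 2.871 to 3.197 (share 0.923).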

How the results depend on the processing

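The 72 tests in single lines gave 44 calls, 37 to 43 on leaving out a replicate number, 45 with DESeq2 and 40 at a threshold of 0.05. With a replicate block there were 51 calls and no direction changed. The 7 calls gained were Tgfbi in clones H (-0.75, adjusted p = 0.0249), M (-0.60, 0.0746) and K (0.96, 0.0807), Inhba in clone K (-0.49, 0.0999) and KPC1 (0.43, 0.0694), Skil in clone V (-0.25, 0.0843) and Tgfb2 in KPC1 (0.70, 0.0519). No label ties same-numbered libraries of the cultures to each other. Their deviations had r from -0.0692 to 0.291 with 17 of 32 over 0.1, and 24 of 32 were highest with their own number, a hint from the data that some share more than a number. Clone N was the line in which all 4 pairs were over 0.1, and no call changed there with the block. The shared response gave 5 calls, 4 to 7 on leaving out a replicate or line, 6 with DESeq2 and 2 in libraries numbered 44 to 64 alone (chosen after the data were seen, with 5 lines in place of 8). The groups in mono-culture gave 0 calls and 0 to 1 on leaving out a clone or replicate, the call being Tgfb3 without clone E. Their difference in response gave 0 in each alternative run.

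Values that did not pass changed sign on leaving out a replicate or line: Skil ran from -0.29 to 0.011 in clone E and from -0.19 to 0.0080 in clone T, Smad7 from -0.18 to 0.068 in KPC1, -0.23 to 0.071 in clone N and -0.25 to 0.068 in clone V, and shared Tgfb2 from -0.12 to 0.25. The causes were not tested. On log2(RPKM + 1), changes of low genes were smaller, 0.89 for Inhba in clone E and -0.68 for Tgfbi in clone V, and both calls were kept. Depth limits Tgfbi in clones E, K and V and Inhba in clone E, and 4 libraries a group limit all calls in single lines.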
